A study of Mus musculus with 7 samples.

Results

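The genes that write, remove and guard DNA methylation were followed in mini-oocytes, oocyte-like cells that form when mouse embryonic stem cells (mESCs) are made to express oocyte transcription factors. The set holds the 10 genes *Dnmt1*, *Uhrf1*, *Dppa3*, *Dnmt3a*, *Dnmt3b*, *Dnmt3l*, *Tet1*, *Tet2*, *Tet3* and *Zfp57*, picked by symbol from the 55364 genes listed. RNA-seq was done on 7 libraries in 3 groups, namely 4F-mini-oocytes at day 7 (n = 2), 4F-mini-oocytes at day 21 (n = 3) and 8F-mini-oocytes at day 21 (n = 2). The 4F line expressed 4 factors (*Nobox*, *Lhx8*, *Figla* and *Tbpl2*), and 8F-mini-oocytes received *Stat3*, *Dynll1*, *Sub1* and *Sohlh1* besides, 8 factors in all. The 8F line also carries an *Npm2*-mCherry reporter. Every group came from BVSC H18, a female mESC line with a 129 and C57BL/6 hybrid background that carries the Blimp1-mVenus and Stella-ECFP reporters, and Stella is the product of *Dppa3*. The factors were fused to a destabilisation domain that Shield-1 stabilises, and Shield-1 was left out of fresh medium in the later part of the culture, between the sampled days. The cells grew in StemPro-34-based medium with SCF and Y-27632 and without somatic cells of the ovary. A day 7 library was made from 1000 cells and a day 21 library from 10 cells, so age, Shield-1 and pooled cell number cannot be told apart in comparisons between the days. The labels name replicates without saying whether they came from separate cultures, so p-values measure only the spread between these samples.

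Methylation of cytosine in CpG is copied after replication by DNMT1, which UHRF1 brings to hemimethylated sites, and DPPA3 keeps UHRF1 out of the nucleus of the oocyte. In growing oocytes new methylation, that of maternal imprints included, is laid down by DNMT3A together with DNMT3L, a partner without catalytic activity, while DNMT3B acts mainly in the early embryo. TET enzymes oxidise methylcytosine, TET3 being the form stored in the egg, and the KRAB zinc finger protein ZFP57 recruits TRIM28 to imprinted regions and protects their methylation after fertilisation.

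On mm10, *Dnmt1* (ENSMUSG00000004099.16) lies on the minus strand at chr9:20907209-20959888, *Uhrf1* (ENSMUSG00000001228.14) at chr17:56303321-56323486 and *Zfp57* (ENSMUSG00000036036.15) at chr17:37001163-37010635, both on the plus strand. *Tet3* (ENSMUSG00000034832.15) lies at chr6:83362373-83459084 on the minus strand, *Dppa3* (ENSMUSG00000046323.8) at chr6:122626410-122630272 and *Dnmt3l* (ENSMUSG00000000730.13) at chr10:78041947-78063622, both on the plus strand. Exons of *Dnmt3a*, *Dnmt3l* and *Tet2* share 133, 67 and 43 bases with opposite-strand exons of *Dnmt3aos*, *Aire* and *Gm42567*, and reads from those stretches cannot be told apart because no strand option is stated for the counting. The 250 bases before a RefSeq start (GRCm38.p6) are shown for the 5 members whose RNA rose between day 7 and day 21, because members that move together can be compared by the letters before their starts. Each runs 5′ to 3′ on the strand of its gene, the most 5′ start without annotated UTR was taken, and capitals mark matches to the E box CANNTG or to TATAAA on either strand.
Dnmt1: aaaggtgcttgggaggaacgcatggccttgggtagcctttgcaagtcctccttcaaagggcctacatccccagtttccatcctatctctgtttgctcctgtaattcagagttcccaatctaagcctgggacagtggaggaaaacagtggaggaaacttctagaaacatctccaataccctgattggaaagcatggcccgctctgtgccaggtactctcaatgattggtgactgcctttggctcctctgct
Uhrf1: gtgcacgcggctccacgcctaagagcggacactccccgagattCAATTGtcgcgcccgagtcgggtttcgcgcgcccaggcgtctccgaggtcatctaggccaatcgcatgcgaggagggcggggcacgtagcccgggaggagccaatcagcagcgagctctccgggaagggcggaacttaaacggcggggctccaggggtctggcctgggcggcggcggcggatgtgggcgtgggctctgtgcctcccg
Dnmt3l: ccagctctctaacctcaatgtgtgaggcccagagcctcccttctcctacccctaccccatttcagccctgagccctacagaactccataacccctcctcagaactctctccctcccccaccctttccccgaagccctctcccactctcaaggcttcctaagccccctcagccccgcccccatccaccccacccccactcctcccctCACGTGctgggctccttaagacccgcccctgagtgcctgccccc
Tet3: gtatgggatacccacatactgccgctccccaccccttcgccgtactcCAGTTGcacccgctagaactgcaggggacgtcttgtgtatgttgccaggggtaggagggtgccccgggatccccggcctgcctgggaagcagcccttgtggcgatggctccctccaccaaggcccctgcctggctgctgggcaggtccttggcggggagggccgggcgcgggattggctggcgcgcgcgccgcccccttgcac
Zfp57: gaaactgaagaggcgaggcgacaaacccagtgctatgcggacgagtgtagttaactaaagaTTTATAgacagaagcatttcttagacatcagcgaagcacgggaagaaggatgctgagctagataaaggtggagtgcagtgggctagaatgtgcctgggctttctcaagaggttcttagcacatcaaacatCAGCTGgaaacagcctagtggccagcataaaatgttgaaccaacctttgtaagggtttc
The window of *Dnmt1* is chr9:20959889-20960138 (minus strand) and lies outside annotated genes. That of *Uhrf1* is chr17:56304063-56304312 (plus strand), inside the *Uhrf1* gene, and that of *Dnmt3l* is chr10:78049592-78049841 (plus strand), in an intron of *Dnmt3l*. The *Tet3* window is chr6:83441679-83441928 (minus strand), inside the *Tet3* gene, and 174 of its bases are exonic in the transcript *B230319C09Rik*. The *Zfp57* window is chr17:37000913-37001162 (plus strand), just before the gene.

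Over windows of 300 bases (250 before and 50 after a start), 9 of the 10 members had 18 RefSeq entries. An E box was present in 13 of the 18, against 72.3% of all 32851 windows, and the letters of the NOBOX element (TAATTG or TAATTA, either strand) in 0 of the 18, against 12.4% of all. TATAAA occurred in 1 window, that of *Zfp57* printed above, against 13.6% of all windows. CpG content set the starts apart, since the printed *Dnmt1* start had an observed to expected CpG ratio of 0.101 and that of *Uhrf1* 0.959, against a median of 0.384 over all windows. The other *Dnmt1* starts, which lie within the gene, were at 0.5 and 0.91, and the other *Uhrf1* start was at 0.472. TPM per gene does not tell which start was used, and a letter match is a description of the window and not a binding site.

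Each library held an estimated 9510836 to 18036193 reads on genes, and replicates correlated at Pearson's r between 0.905 and 0.983 across genes on the log2(TPM + 1) scale. TPM (a measure of transcript abundance) divides reads by exon length and sets every library to the same sum. The 10 highest genes took 28.5% and 31.8% of that sum in the day 7 libraries and 10.2% to 14.0% in the day 21 libraries, so other genes shared a smaller remainder at day 7, and the part of this in the differences between days was not tested. All 10 oocyte markers looked up, among them *Zp1*, *Zp2*, *Zp3*, *Gdf9* and *Npm2*, averaged at least 1 TPM in every group, and their summed level was 6194 to 8010 TPM at day 7, 31458 to 34358 TPM in 4F and 26545 to 26924 TPM in 8F at day 21. Summed markers of trophoblast and simple epithelium (7 genes) ran the other way, from 1123 to 1555 TPM at day 7 to 54.0 to 148 TPM in 4F and 38.3 to 46.7 TPM in 8F at day 21. The keratin genes *Krt8* (means of 761, 71.4 and 28.8 TPM in the same order of groups) and *Krt18* (547, 4.60 and 0.840 TPM) held most of that sum at day 7. *Gata3* also fell (9.43, 0.0557 and 0.339 TPM), while *Tfap2c* was at 19.1, 13.3 and 11.0 TPM and *Eomes* at 1.65, 1.26 and 1.43 TPM. *Cdx2* and *Elf5* were at 0 TPM at day 7 and at most 1.13 TPM in any day 21 library. The 7 granulosa markers summed to at most 4.08 TPM in any library. Summed mESC markers (8 genes) were 85.8 to 96.9 TPM at day 7, 243 to 360 TPM in 4F and 137 to 178 TPM in 8F at day 21. *Pou5f1*, which oocytes also express, held most of the difference in that sum, at 27.3, 196 and 88.1 TPM on average in the 3 groups, followed by *Esrrb* (8.12, 36.7 and 35.0 TPM), while *Zfp42* was at 21.2, 7.30 and 4.67 TPM. *Nanog* had reads in 1 library (0.94 TPM, 4F day 7 replicate 2), and *Tdgf1* had 1 read in 1 library (8F replicate 2) and was listed at 0 in the others. In these bulk libraries fewer cells of a type and less RNA per cell cannot be told apart, and the part of other cells in the differences between days was not tested.

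The 10 genes spread over the whole range of expression. *Dppa3* led in every group and *Tet1* and *Dnmt3l* stood at or near the bottom. At day 7 the order was *Dppa3*, *Uhrf1*, *Dnmt1*, *Zfp57*, *Tet3*, *Dnmt3a*, *Tet2*, *Dnmt3b*, *Tet1* and *Dnmt3l*, and 4 pairs of neighbours overlapped in their libraries (*Dnmt1* with *Zfp57*, *Tet3* with *Dnmt3a*, *Tet2* with *Dnmt3b*, and *Tet1* with *Dnmt3l*). At day 21 *Dnmt1* stood above *Uhrf1* in both lines (8F at day 7 was not analysed here), and *Dppa3*, *Dnmt1*, *Uhrf1*, *Zfp57*, *Tet3* and *Dnmt3a* followed each other without overlap. In 4F at day 21 *Dnmt3b* overlapped *Tet2*, while in 8F no neighbours overlapped and *Dnmt3l* stood above *Tet2*.

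**Figure D1:**
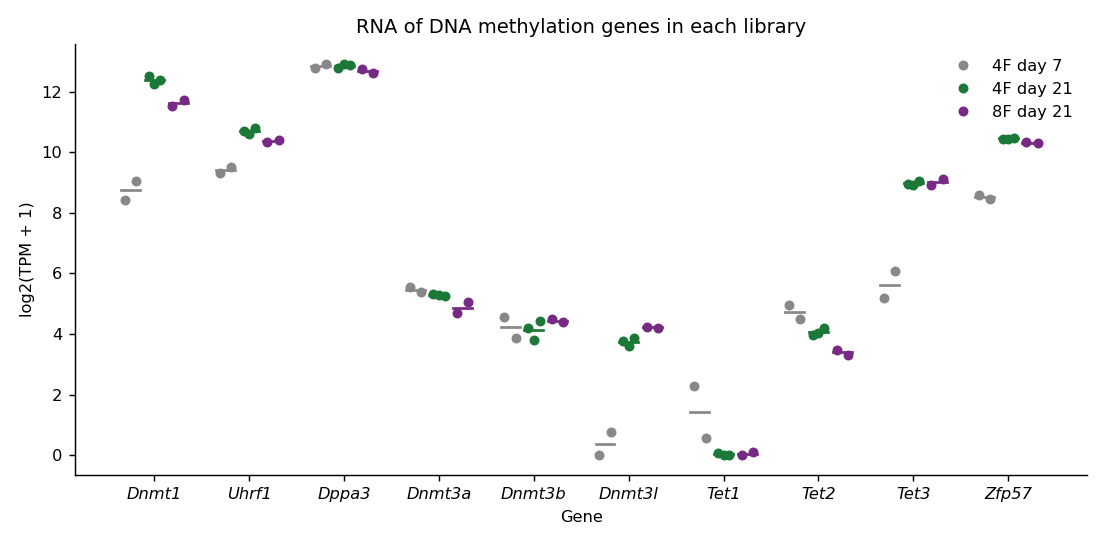
Level of each DNA methylation gene, as log2(TPM + 1), in the 7 libraries, with a point for each library and a line at the group mean. *Dnmt1*, *Uhrf1*, *Dnmt3l*, *Tet3* and *Zfp57* stand higher at day 21 than at day 7 in every library, *Dppa3* stays near the top in all 3 groups, and *Tet1* lies near 0 at day 21.

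Among the maintenance genes *Dnmt1* rose the most. It was at 346 and 527 TPM in the day 7 libraries, at 5905, 4894 and 5322 TPM in 4F at day 21, and at 2947 and 3393 TPM in 8F at day 21. No group overlapped another, with 4F at day 21 highest, and in rank *Dnmt1* moved from 214th and 135th among all genes at day 7 to 10th, 12th and 12th in 4F at day 21. The means of 437 ± 128 TPM (SD, n = 2) and 5374 ± 507 TPM (SD, n = 3) gave a 12.3-fold rise in 4F, a log2 fold change of 3.65 (SE 0.205; limma, Benjamini-Hochberg adjusted p = 8.21e-05). *Uhrf1*, which brings DNMT1 to its substrate, was at 637 and 730 TPM at day 7, at 1679, 1553 and 1775 TPM in 4F at day 21, and at 1294 and 1346 TPM in 8F. Its groups likewise did not overlap, but the rise in 4F was only 2.44-fold (log2 fold change 1.29, SE 0.117, limma adjusted p = 0.000369). The summed level of 7 proliferation markers, which include *Pcna* and *Mki67*, also rose, from 332 to 385 TPM at day 7. At day 21 it was 785 to 829 TPM in 4F and 801 to 836 TPM in 8F. The paper reports that cell proliferation stopped rapidly once the factors were induced. Summed marker RNA is not a measure of dividing cells here, and its part in the rise of the maintenance genes was not tested.

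*Dppa3*, the guard that excludes UHRF1 from the nucleus, held 7125 and 7804 TPM at day 7, 6987, 7689 and 7583 TPM in 4F at day 21, and 6906 and 6292 TPM in 8F. Its day 7 and day 21 libraries of 4F overlapped, and it ranked between 7th and 12th of all genes in each of the 7 libraries. The log2 fold change from day 7 to day 21 in 4F was -0.01 with a 95% interval of -0.41 to 0.39 (limma adjusted p = 0.982). That value followed the scaling, at 0.56 when libraries were quantile-normalised and -0.57 by voom on reads recovered from TPM, both past FDR 0.05.

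The de novo genes did not move together. *Dnmt3a*, the catalytic enzyme of oocyte methylation, was at 46.0 and 40.8 TPM at day 7, 38.7, 38.0 and 37.5 TPM in 4F at day 21, and 24.9 and 32.0 TPM in 8F. Each group lay below the one before without overlap, yet the day 21 minus day 7 change in 4F was small (log2 fold change -0.18, SE 0.155, limma adjusted p = 0.394), and it passed FDR 0.05 under 3 other scalings (-0.52, -0.68 and -0.72). *Dnmt3b* was at 22.5 and 13.8 TPM at day 7, 17.2, 12.8 and 20.5 TPM in 4F at day 21, and 21.5 and 19.9 TPM in 8F. All 3 groups overlapped, and its change in 4F had a 95% interval of -0.77 to 0.60 (limma adjusted p = 0.838).

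*Dnmt3l*, the partner of DNMT3A, was the de novo gene that rose. It was listed at 0 and at 0.705 TPM (an estimated 11 reads) at day 7, at 12.5, 11.1 and 13.7 TPM in 4F at day 21, and at 17.9 and 17.5 TPM in 8F. Every day 21 library stood above both day 7 libraries, and the estimated reads at day 21 numbered 144 to 313. At day 7, 3 reads would have been 0.256 and 0.192 TPM, so the first library was below what its depth could show. The log2 fold change in 4F was 3.36 on the log2(TPM + 1) scale (SE 0.347, limma adjusted p = 0.000596), and its size turned on the pseudocount and scaling, from 1.70 to 5.55 over the alternatives, past FDR 0.05 in all 18.

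Of the TET genes *Tet3* rose. This maternal dioxygenase was at 35.5 and 66.3 TPM at day 7, at 497, 483 and 532 TPM in 4F at day 21, and at 484 and 552 TPM in 8F. The day 21 libraries of both lines overlapped each other and stood far above day 7, and the means of 50.9 ± 21.8 TPM (SD, n = 2) and 504 ± 25.4 TPM (SD, n = 3) gave a 9.89-fold rise in 4F (log2 fold change 3.35, SE 0.243, limma adjusted p = 0.000171). *Tet2* was at 30.3 and 21.7 TPM at day 7, 14.6, 15.2 and 17.2 TPM in 4F at day 21, and 10.2 and 8.88 TPM in 8F. No group of *Tet2* overlapped another, and the log2 fold change from day 7 to day 21 in 4F was -0.68 (SE 0.225, limma adjusted p = 0.0517). It passed FDR 0.05 under 6 of 18 alternatives, the removal of day 7 replicate 2 among them (-0.91, adjusted p = 0.0296).

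*Tet1*, the form typical of mESCs and primordial germ cells, had few or no reads in the day 21 libraries. It was at 3.89 TPM (an estimated 236 reads) and 0.471 TPM (38 reads) at day 7, at 0.0414, 0.0149 and 0 TPM in 4F at day 21 (3, 1 and 0 reads), and at 0 and 0.0744 TPM in 8F (0 and 7 reads). Both day 7 libraries lay above all day 21 libraries but differed between themselves by more than the day 21 libraries did. The gene did not reach 1 TPM in 2 libraries and was not tested, which leaves 9 of the 10 members with a test.

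*Zfp57*, the guard of imprints, rose with the smallest standard error of the 9 tested members. It was at 383 and 351 TPM at day 7, at 1391, 1389 and 1432 TPM in 4F at day 21, and at 1287 and 1252 TPM in 8F. The day 21 libraries of both lines stood apart from day 7, with 4F slightly above 8F. Means of 367 ± 22.7 TPM (SD, n = 2) and 1404 ± 24.4 TPM (SD, n = 3) gave a 3.83-fold rise in 4F (log2 fold change 1.94, SE 0.096, limma adjusted p = 6.13e-05).

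In all, 5 of the 9 tested members rose from day 7 to day 21 in 4F, 0 fell and 4 did not pass FDR 0.05. Of all tested genes 40.6% were called, made up of 25.3% higher and 15.3% lower. The count of 0 falls depended on the settings, since *Dnmt3a* passed as a fall under 3 and *Tet2* under 6 of 18 alternatives. The groups did not overlap for 7 of the 9, a state that 56.7% of all tested genes shared. The median log2 fold change of the 9 was 1.29, against 0.168 over all tested genes. That median of all genes depended on the scaling (-0.0601 after median-of-ratios rescaling and -0.324 with voom), while *Dnmt1*, *Uhrf1*, *Dnmt3l*, *Tet3* and *Zfp57* passed FDR 0.05 with a rise under all 18 alternatives run. Over these, the log2 fold change of *Dnmt1* ran from 3.06 to 3.95, of *Uhrf1* from 0.73 to 1.39, of *Tet3* from 2.78 to 3.79 and of *Zfp57* from 1.40 to 2.00, with the low end of *Uhrf1* from voom.

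**Figure D2:**
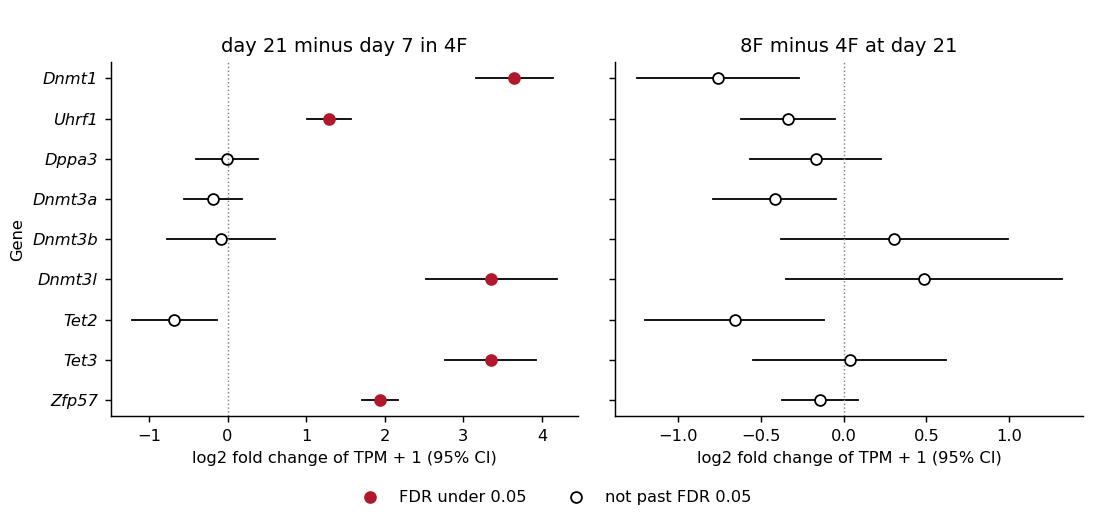
Log2 fold change of TPM + 1 with its 95% confidence interval for the 9 tested members, from day 7 to day 21 in 4F (left) and between 8F and 4F at day 21 (right), with filled points past FDR 0.05. *Dnmt1*, *Uhrf1*, *Dnmt3l*, *Tet3* and *Zfp57* are filled on the left, and 0 genes are filled on the right.

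The 8F and 4F lines were compared at day 21, when both were sequenced as pools of 10 cells. With a single line for each factor set, the added factors cannot be told apart from other differences between the lines, the reporter among them. Read lengths are described without naming libraries, so their part could not be examined. Here 0 of the 9 tested members passed FDR 0.05 with limma, against 8.37% of all tested genes (3.95% higher and 4.41% lower in 8F), 4 had an unadjusted p under 0.05, and voom on recovered reads called 1. *Dnmt1* came nearest, at 3170 ± 315 TPM (SD, n = 2) in 8F and 5374 ± 507 TPM (SD, n = 3) in 4F, 1.70-fold lower in 8F (log2 fold change -0.76, SE 0.205, 95% interval -1.25 to -0.27, adjusted p = 0.0766). The call sat at the threshold, for it was made under 5 of 18 alternatives, without day 7 replicate 1 (adjusted p = 0.0431) and without day 7 replicate 2 (adjusted p = 0.0446) among them, and the adjusted p ran from 0.00143 to 0.483 over all 18. *Uhrf1* differed by -0.34 on the log2 scale (interval -0.62 to -0.05), *Dnmt3a* by -0.42 (-0.79 to -0.05) and *Tet2* by -0.66 (-1.20 to -0.12), with adjusted p of 0.153, 0.175 and 0.145.

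For the other members the interval of the difference between 8F and 4F included 0. *Dppa3* differed by -0.17 (interval -0.57 to 0.23), *Tet3* by 0.04 (-0.55 to 0.62) and *Dnmt3l* by 0.49 (-0.35 to 1.32), with adjusted p of 0.636, 0.963 and 0.493. The *Dppa3* libraries of 8F all lay below those of 4F, whereas the *Tet3* libraries overlapped. In 7 of the 9 tested members the libraries of 8F and 4F did not overlap, 6 with 8F lower (*Dnmt1*, *Uhrf1*, *Dppa3*, *Dnmt3a*, *Tet2* and *Zfp57*) and 1 with 8F higher (*Dnmt3l*), where 43.8% of all tested genes did not overlap. The median log2 fold change of the 9 was -0.169, against 0.0556 over all tested genes. The direction for *Zfp57*, -0.15 here, turned to 0.02 after quantile normalization and to 0.01 with voom.

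Set against 4F at day 7, the 8F-mini-oocytes of day 21 had 5 members higher and 2 lower among the 9 tested, where 37.2% of all tested genes were called (24.2% higher and 13% lower), and these day 7 libraries are also those of the comparison within 4F. Line, factors and reporter change here together with day, Shield-1 and pooled cell number, and their parts cannot be told apart. *Dnmt1* was higher by 2.89 on the log2 scale, *Uhrf1* by 0.95, *Dnmt3l* by 3.84, *Tet3* by 3.38 and *Zfp57* by 1.79 (limma adjusted p of 0.000335, 0.00214, 0.000704, 0.000346 and 0.00015). *Tet2* was lower (log2 fold change -1.34, adjusted p = 0.00691) and so was *Dnmt3a* (-0.60, adjusted p = 0.0326), although the call of *Tet2* was lost without 8F replicate 2 (adjusted p = 0.0528). For *Dnmt3a* the call was made under 12 of 18 alternatives, and those that lost it included leaving out day 7 replicate 1 (adjusted p = 0.1) or 8F replicate 1 (adjusted p = 0.132). *Dppa3* (-0.18, adjusted p = 0.487) and *Dnmt3b* (0.22, adjusted p = 0.624) did not pass.

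Ratios taken within a library do not depend on its scaling and are given without a test. The TPM of *Dppa3* over that of its target *Uhrf1* was 11.2 and 10.7 at day 7, 4.16, 4.95 and 4.27 in 4F at day 21, and 5.34 and 4.68 in 8F. That ratio fell between the days as *Uhrf1* RNA rose, while *Dppa3* did not pass the test. *Dnmt1* over *Uhrf1* went the other way, from 0.544 and 0.721 at day 7, below its partner, to 3.52, 3.15 and 3.00 in 4F and 2.28 and 2.52 in 8F at day 21. All 3 groups were apart in this ratio, with 8F between day 7 and 4F.

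*Dnmt3l* over its partner *Dnmt3a* was 0.0173 in the day 7 library that had reads of both, 0.323, 0.291 and 0.365 in 4F at day 21, and 0.721 and 0.546 in 8F. Both 8F libraries lay above the 3 of 4F, from higher *Dnmt3l* and lower *Dnmt3a* values, neither past FDR 0.05 by itself. *Dnmt3b* over *Dnmt3a* was 0.337 to 0.864 over the 7 libraries, with 8F at 0.864 and 0.622 above the other groups. *Tet3* over *Tet2* was 1.17 and 3.06 at day 7, 34.1, 31.7 and 30.9 in 4F, and 47.3 and 62.1 in 8F, with no overlap between groups.

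**Figure D3:**
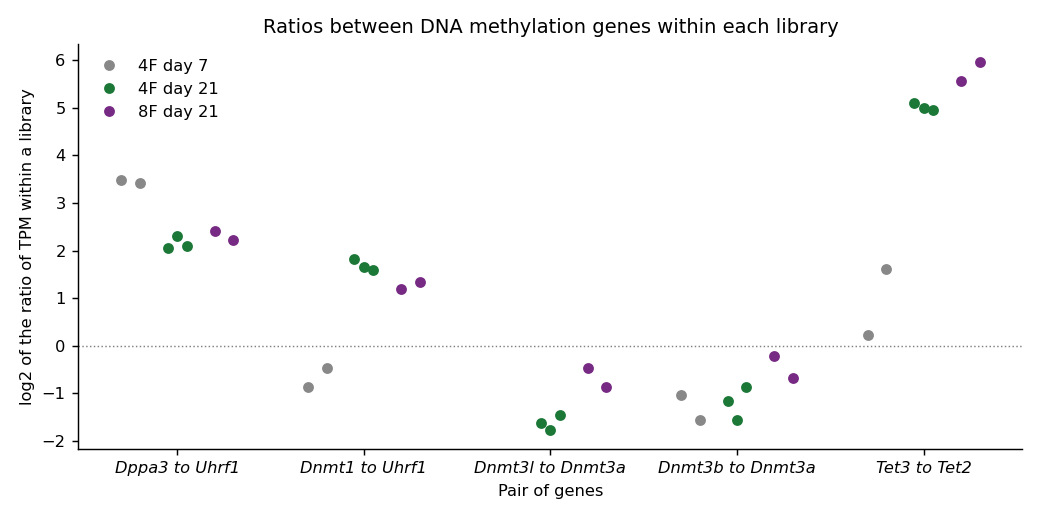
Log2 of the ratio of TPM between members in the same library, with a point for each library that has reads of both genes. Day 7 is not drawn for *Dnmt3l* to *Dnmt3a*, whose ratio was 0.0173 in 4F day 7 replicate 2. *Dppa3* to *Uhrf1* is lower and *Dnmt1* to *Uhrf1* and *Tet3* to *Tet2* are higher at day 21 than at day 7, and *Dnmt3l* to *Dnmt3a* is highest in the 8F libraries.

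As shares of the summed TPM of each enzyme class, a single gene held nearly all of each class at day 21. *Dnmt1* made up 83.5% and 90.6% of the *Dnmt1*, *Dnmt3a* and *Dnmt3b* RNA at day 7, 98.9% to 99.1% in 4F and 98.5% in each 8F library at day 21. Shares, ratios and orders between genes rest on the exon length that TPM divides by, here 7377, 16642 and 5106 bases. In day 7 replicate 1 the estimated reads of these 3 genes were 10032, 3003 and 452. *Tet3* made up 51.0% and 75.0% of *Tet1*, *Tet2* and *Tet3* RNA at day 7, 96.9% to 97.1% in 4F and 97.9% and 98.4% in 8F. The remainder at day 7 was mostly *Tet2*, with 43.4% and 24.5%, and *Tet1* held 5.58% and 0.532%. Summed TET RNA went from 69.7 and 88.5 TPM at day 7 to between 494 and 560.5 TPM in the 5 libraries of day 21. Replicates of day 7 were farther apart in these shares than those of day 21.

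**Figure D4:**
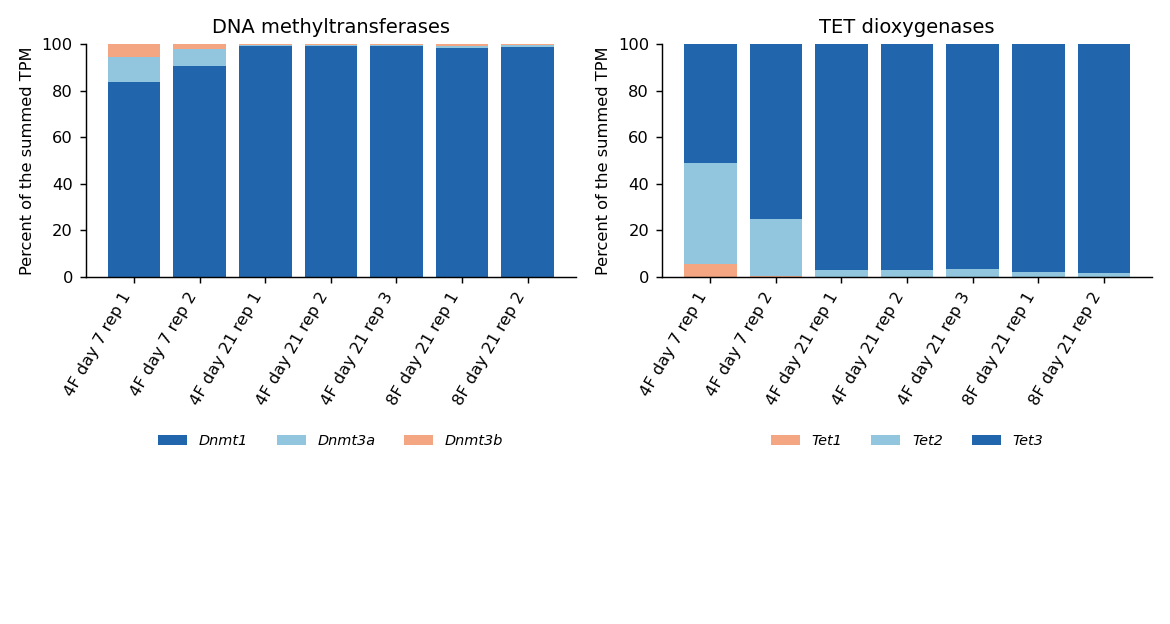
Percent of the summed TPM of the DNA methyltransferase genes *Dnmt1*, *Dnmt3a* and *Dnmt3b* (left) and of the TET genes (right) in each library. *Dnmt1* reaches at least 98.45% and *Tet3* at least 96.86% in every day 21 library, and *Tet2* holds 43.4% and 24.5% of TET RNA at day 7.

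The members act with partners, and 60 other genes of the pathway in 6 lists were examined alongside, 58 of which were tested. The lists were chosen with earlier results of these data known, so their shares of called genes are descriptions and not a test of the pathway. From day 7 to day 21 in 4F 23 rose and 8 fell, 53.4% of those tested against the 40.6% of all genes, with a median log2 fold change of 0.44 against 0.168. Of 8 maintenance partners 4 rose and 2 fell. The sliding clamp *Pcna* went from 32.2 to 39.6 TPM at day 7 to 89.7 to 152 TPM (log2 fold change 1.64), the replication ligase *Lig1* rose by 0.87 and *Cdca7l* by 1.51, while the UHRF1 paralogue *Uhrf2* fell by 1.43, from 14.8 and 15.2 TPM to between 4.33 and 5.49 TPM. The clamp-associated factor *Pclaf* fell by 1.44 but was at most 3.34 TPM in any library.

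Of 7 genes tied to de novo methylation and its chromatin context 5 rose and 1 fell. The *Dnmt3b* duplicate *Dnmt3c* rose by 1.80 on the log2 scale, the histone methyltransferase *Kmt2b* by 1.00 and the histone demethylase *Kdm1b*, which maternal imprints need, by 0.77, and the histone methyltransferase *Ehmt2* fell by 0.84. In the list of removal and repair 5 of 15 tested genes rose and 3 fell. The glycosylase *Tdg*, which excises the oxidation products that TET enzymes make, fell by 2.48 on the log2 scale, from 7.89 and 12.0 TPM to at most 1.91 TPM, and *Cxxc4* fell by 1.84 and *Parp1* by 0.29. *Ung* (1.13), *Polb* (1.03) and *Apex1* (0.74), which act in base excision repair, rose, although *Apex1* passed under only 9 of 18 alternatives, as did *Parp1*.

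Among 9 tested genes of imprint protection 5 rose and 1 fell. *Nlrp2*, a maternal effect gene, went from 0.944 and 11.5 TPM to between 256 and 278 TPM (log2 fold change 5.77), and *Padi6*, a component of the oocyte lattices, from 4826 and 5815 TPM to between 15209 and 17317 TPM (1.60). *Setdb1*, the histone methyltransferase that TRIM28 recruits, rose by 1.01, and the imprint zinc finger gene *Zfp445* fell by 0.63. Of 7 genes listed as methyl-CpG readers or as members of their families, *Mbd3* rose by 1.15. In that list *Zbtb4*, at 2.81 and 4.18 TPM at day 7, was at 0 in all day 21 libraries. Of 12 genes of methyl donor supply 3 rose, *Shmt2* by 2.36, *Mat2b* by 1.40 and *Mthfd1* by 1.13. The falls of *Ehmt2* and *Zfp445* passed under 13 and 14 of 18 alternatives, and that of *Pclaf* under 12 of the 17 in which it was tested.

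Between 8F and 4F at day 21, 9 of the 58 partners were lower and 2 higher, 19% of those tested against the 8.37% of all genes, with a median of -0.15 against 0.06. *Kdm1b* was at 799 and 878 TPM in 8F and at 1356 to 1557 TPM in 4F (log2 fold change -0.82, limma adjusted p = 0.0118). *Setd2*, the methyltransferase of histone H3 lysine 36 that the oocyte methylome needs, was lower by 0.61, *Lig1* by 0.93, *Usp7* by 0.42 and *Parp1* by 0.54. In the list of readers and their families *Mbd3* was at 116 and 127 TPM in 8F and at 229 to 254 TPM in 4F (-0.98, limma adjusted p = 0.00914), and *Zbtb38* differed by -1.50. *Arid4a* and *Arid4b*, regulators of an imprinted domain, differed by -1.30 and -0.98. Higher in 8F were 2 genes of methyl donor supply, *Shmt2* by 0.85 and *Mat1a* by 0.83. These 11 calls were made under between 7 (*Usp7*, *Setd2* and *Zbtb38*) and 15 (*Mbd3*) of the 18 alternatives.

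**Figure D5:**
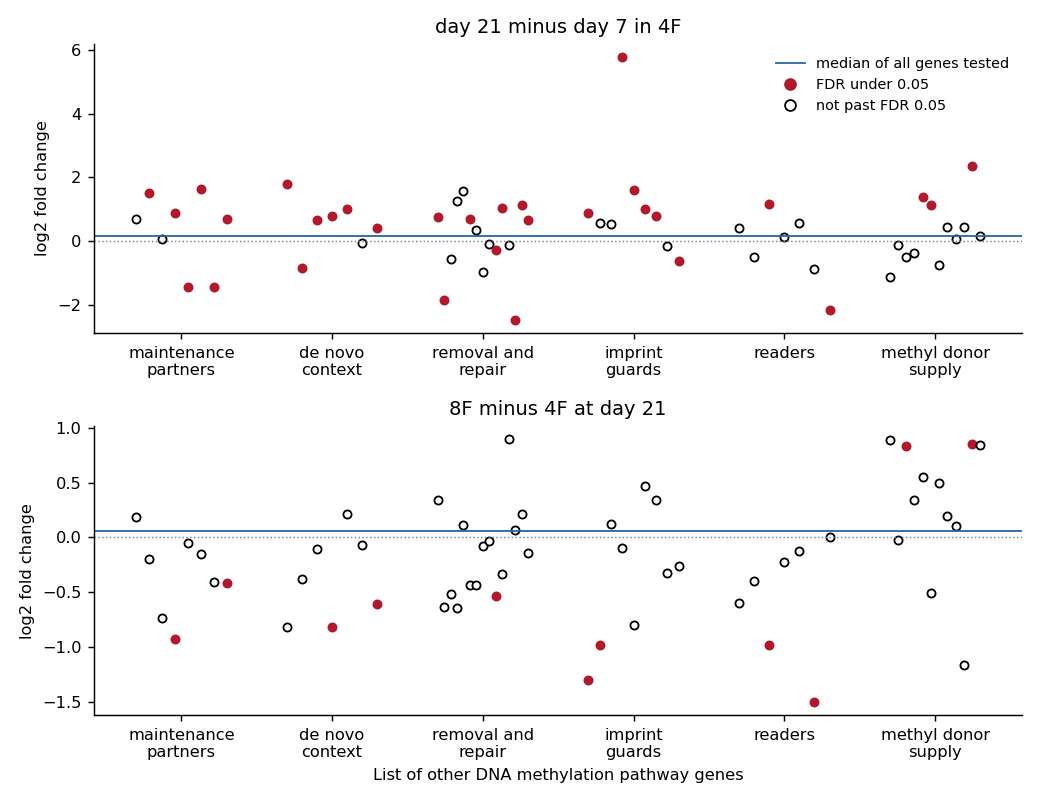
Log2 fold change of TPM + 1 for 58 other genes of the DNA methylation pathway in 6 lists, from day 7 to day 21 in 4F (top) and between 8F and 4F at day 21 (bottom), with the median of all tested genes as a line. Filled points passed FDR 0.05, 31 of them in the top panel (23 higher and 8 lower) and 11 in the bottom panel (2 higher and 9 lower).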

How the data were processed

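The authors made SMART-seq Stranded libraries, and used Trim Galore! for trimming, Hisat2 for alignment to mm10 and Bedtools to take out rRNA. They kept unique alignments, counted read pairs on GENCODE vM25 genes with featureCounts (overlapping genes share a read as fractions) and deposited TPM, the only unit used. Different NovaSeq read lengths are described without naming libraries. Unique mapping lowers genes with near-identical copies.

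Genes that reached 1 TPM in 2 or more of the 7 libraries (21780 of 55364) were fitted as log2(TPM + 1) in limma 3.58.1 under R 4.3.3 (lmFit, eBayes with trend), all 7 libraries and 3 groups together. Tests were two-sided with Benjamini-Hochberg adjustment over all genes tested, at FDR 0.05. Fold changes on this scale understate low genes. Reads were estimated from TPM steps and GENCODE vM21 exon lengths (54312 gene identifiers matched with version, 55104 in all), with 85.0% to 87.8% of low values whole within 0.01 of a read. These limits cover counting error only, since amplified reads are not independent molecules. Tested on simulated counts with the same dispersion for every gene and few changed genes, the fit missed most of the changed genes. Its calls held more unchanged genes than the nominal FDR, and both shares belong to that setting and may differ in these libraries. A gene past the threshold is therefore not certain, and a gene short of it is not shown to be unchanged. Depth was 9510836 to 18036193 reads per library.

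Members always, and up to 3 partners per list and direction past FDR 0.05 whose groups did not overlap, were named. Members and lists were chosen with earlier results of these data known. Copies of members were searched with blastn 2.17.0. Samples were grouped by their labels, and 3 contrasts were made. Alternatives were other pseudocounts, filters, scalings, variance models, a replicate block, voom on recovered reads and each library left out.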

Additional observations from a re-analysis of the deposited data

How the results depend on the processing

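Each fold change was recomputed under 18 alternatives, and doing so for partner genes and copies was chosen after seeing the data. Of 1221 recomputed values 1053 kept direction and side of the threshold, 132 lost the call, 21 gained it and 15 reversed. The count of members called between 8F and 4F at day 21 went from 0 to 1 with quantile normalization, array weights and voom, and was 0 to 1 with a library left out. From day 7 to day 21 in 4F it went from 5 to 8 with quantile normalization and with voom. Over all genes, the 1822 calls between 8F and 4F became 994 without the trend and 3572 with array weights, and ran from 306 (without 8F replicate 1) to 2221 (without day 7 replicate 2) with a library left out, with 357 without 8F replicate 2, and 943, 924 and 1021 without 4F day 21 replicates 1, 2 and 3. For 8F against day 7 the 8103 calls ran from 4089 (without 8F replicate 2) to 8281 with a library left out, with 4215 without 8F replicate 1. With the replicate number as a block 164 genes were called between 8F and 4F, and 0 members. Deviations of same-numbered libraries from their group means correlated at r between -0.0369 and 0.0111. In groups with n = 2 these deviations mirror each other, so r cannot tell whether equal numbers share a culture or batch. The block ended the call of *Dnmt3a* in 8F against day 7 (adjusted p = 0.0854) and of no other member. The cause of these changes was not tested.

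Reversed log2 fold changes were, under quantile normalization, 0.56 for *Dppa3* from day 7 to day 21 in 4F, 0.35 for *Dppa3* and -0.0537 for *Dnmt3b* in 8F against day 7, 0.0219 for *Zfp57* between 8F and 4F, and -0.15 for *Dppa3-ps* in 8F against day 7. With voom they were 0.0103 for *Zfp57* between 8F and 4F, and -0.12 for *Dnmt3b* and -0.0181 for *Dppa3-ps* in 8F against day 7, and with median-of-ratios rescaling -0.0894 for *Dnmt3b* in 8F against day 7. With a library left out they were 0.0572 and 0.0342 for *Dppa3* (without day 7 replicate 2 and without 4F day 21 replicate 1; range -0.0741 to 0.0572) and 0.249 and 0.085 for *Dnmt3b* (without day 7 replicate 1 and without 4F day 21 replicate 2; range -0.423 to 0.249), from day 7 to day 21 in 4F. They were also -0.12 for *Dnmt3b* in 8F against day 7 (without day 7 replicate 2) and -0.0573 for *Tet3* between 8F and 4F (without 8F replicate 2; range -0.0573 to 0.131). The share of calls that were higher from day 7 to day 21 in 4F was 62.3%, and 48.6%, 52% and 37.3% after median-of-ratios rescaling, quantile normalization and voom. Between 8F and 4F it was 47.3%, and 62.9% with voom, 61.1% without the trend, 39.3% with a filter of 5 TPM, 73.5% without 8F replicate 1 and 71.1% without 8F replicate 2. In 8F against day 7 it was 65.1%, and 51.5%, 51.1% and 47.3% under the same rescalings.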

Other observations

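Processed copies of 2 members differed between 8F and 4F at day 21. A search of member transcripts against all transcripts, at 95% identity or more over at least 150 bases, found *Dppa3-ps*, with 98.2% identity over 451 bases of the 833-base *Dppa3* transcript, and *Gm5648*, with 98.3% identity over 1590 bases of the 3586-base *Uhrf1* transcript. *Dppa3-ps* was listed at 48.6 and 40.6 TPM at day 7, at 240, 228 and 212 TPM in 4F at day 21, and at 46.6 and 69.8 TPM in 8F. The 8F libraries overlapped those of day 7 and lay 3.89-fold below 4F (log2 fold change -1.97, SE 0.187, limma adjusted p = 0.00495), whereas *Dppa3* itself differed between the lines by -0.17. *Gm5648* was at 8.83 and 6.27 TPM at day 7, at 56.3, 50.2 and 66.7 TPM in 4F at day 21, and at 12.7 and 12.8 TPM in 8F. It was 4.52-fold lower in 8F than in 4F (log2 fold change -2.08, SE 0.213, limma adjusted p = 0.00542), beside -0.34 for *Uhrf1*. The calls between lines were made under 17 and 15 of 18 alternatives, with adjusted p from 0.00293 to 0.0523 and from 0.000913 to 0.0598. Unique mapping decides which reads these copies and their parents receive, and its part in the values was not tested. The copies were found by sequence and their values were then looked up.

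Genes whose profile over the 7 libraries came closest to a member were taken from 8662 candidates by the Euclidean distance of centred log2(TPM + 1), as a description over libraries that fall into 3 groups. *Dnmt1* lay nearest to *Sox8* (distance 0.282), a transcription factor gene at 5.41 TPM on average at day 7, 88.5 TPM in 4F and 53.4 TPM in 8F at day 21. *Dnmt3l* lay nearest to *Olfr976* (0.257), which averaged 6.67 TPM at day 7, 72.2 TPM in 4F and 96.6 TPM in 8F. The next nearest to *Dnmt3l* was *Bmp15* (0.334), an oocyte growth factor gene that averaged 27.5 TPM at day 7, 289 TPM in 4F and 436 TPM in 8F. *Tet3* lay nearest to *Zbed3* (0.196), a gene of the subcortical maternal complex at 1007 TPM at day 7 and 9534 TPM in 4F at day 21. *Zfp57* lay nearest to *Spats2* (0.0899), and *Uhrf1* to *Samhd1* (0.14), a dNTP triphosphohydrolase gene. Next nearest were *D6Ertd527e* to *Dnmt1* (0.466), *Pak1ip1* to *Uhrf1* (0.162), *Fhod3* to *Tet3* (0.415) and *Fbxo34* to *Zfp57* (0.178).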
